A study of Mus musculus with 4 samples.

Results

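The Trim genes encode tripartite motif proteins, and their occupancy by Runx3 was read from 2 peak lists made from CD8 T cells of adult mouse spleen. Members were all protein-coding genes of the RefSeq table of GRCm38.p6 (mm10) whose symbol is Trim followed by a number, with or without a letter. There were 68 members among 21887 protein-coding genes, spread over 15 chromosomes, and 10 of them formed a cluster on chromosome 7 that is described apart. The cells were wild type and were taken with magnetic beads against CD8a, per the labels' protocols, which give neither strain nor sex. The chromatin immunoprecipitation (ChIP) library came from 50000000 frozen cells pooled from 5 mice. The CUT&RUN library, in which an antibody directs a nuclease to its target so that nearby DNA is cut free, came from 150000 fresh cells of 1 mouse. Both used the same rabbit serum against Runx3, a transcription factor of the RUNX family needed for CD8 T cell development. There was 1 library per assay, so differences between the lists have no replicate check and no p-value is given.

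Tripartite motif proteins carry a RING domain, B-boxes and a coiled coil, and most of them act as ubiquitin ligases. Many restrict viruses or tune the sensing of foreign RNA and DNA, and interferon induces a large part of the family. Others work in the nucleus as corepressors, on microtubules, or in muscle. RUNX proteins bind DNA at the letters TGTGGT or close variants, with the subunit encoded by Cbfb.

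The ChIP list held 13166 peaks from 9532996 fragments after duplicate removal, out of 48285251. The CUT&RUN list held 15891 peaks from 14068364 fragments, out of 17896991. A larger part of the ChIP library was thus removed as duplicates, which limits what a missing ChIP peak can mean. A peak's summit is its highest point, and its pileup is the number of fragments over the summit. Both are the authors' values. Heights were ranked only within a list, as the top percent by q value, because the assays differed in cells, control and threshold. Peaks were called shared when they overlapped a peak of the other list by at least 1 bp. The lists hold no expression values. As a check of the label, all 5 T cell genes looked at (Cd3d, Cd3e, Cd3g, Cd8a and Cd8b1) had a peak within 10 kb in both lists (all genes, 34.9%). Of 3 myeloid genes (Csf1r, Lyz2 and Adgre1), 0 had one in either list (all genes, 50.5%). The check is weak, because the gene lists are short and Cd3d and Cd3g have the same best summits.

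Runx3 was found at many Trim genes. Within 10 kb its share was near that of protein-coding genes in general, and within 50 kb it was higher. A summit lay in the gene span or within 10 kb of it for 31 of 68 members in ChIP (45.6%, exact 95% interval 33.5 to 58.1), where 40.2% of all protein-coding genes had one. In CUT&RUN the count was 37 of 68 (54.4%, 41.9 to 66.5), beside 45.1% of all genes. A ChIP peak shared with CUT&RUN lay there for 26 members (38.2%, 26.7 to 50.8), beside 31.5%. A peak of at least 1 list was found at 40 members (58.8%, beside 50.5% of all genes) and of both lists at 28 (41.2%, beside 34.9%). The intervals of the first 3 counts each included the share of all genes. Within 50 kb they did not: ChIP reached 52 of 68 members (76.5%, 64.6 to 85.9; all genes, 58.9%), CUT&RUN 54 (79.4%, 67.9 to 88.3; 62.4%) and shared peaks 48 (70.6%, 58.3 to 81; 50.3%). Without the chromosome 7 cluster, where neighbours share peaks, the counts at 50 kb were 44, 45 and 41 of 58 (75.9%, 77.6% and 70.7%). Neighbours outside the cluster also share peaks at this distance. The ChIP summit at Trim26, for example, lies 23.8, 32.6 and 44.7 kb from Trim15, Trim10 and Trim40. The intervals treat members as separate, so at 50 kb they do not allow for peaks counted at several neighbours.

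The counts at gene ends were also close to the background. Within 1 kb of either end of the gene, 15 members had a ChIP summit (22.1%, 12.9 to 33.8; all genes, 23%) and 20 a CUT&RUN summit (29.4%, 19 to 41.7; all genes, 27.2%). A shared ChIP peak had its summit there in 12 (17.6%, 9.47 to 28.8; all genes, 17.1%). Either list reached 23 members (33.8%; all genes, 31.8%) and both lists 12 (17.6%; all genes, 18.3%). Longer genes offer more room for a peak. The members had a median span of 15.9 kb (3.25 to 148 kb), against 17.2 kb for all genes. Among the 13 members longer than 31.2 kb, 10 had a CUT&RUN peak within 10 kb (76.9%; all genes of that class, 53.5%) and 6 a ChIP peak (46.2%; 48.1%). Of the 39 between 8.74 and 31.2 kb, 22 had one in CUT&RUN (56.4%; 50.6%) and 21 in ChIP (53.8%; 44.9%). Of the 16 shorter than 8.74 kb, 5 had one in CUT&RUN (31.2%; 31.3%) and 4 in ChIP (25%; 27.6%).

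**Figure D1:**
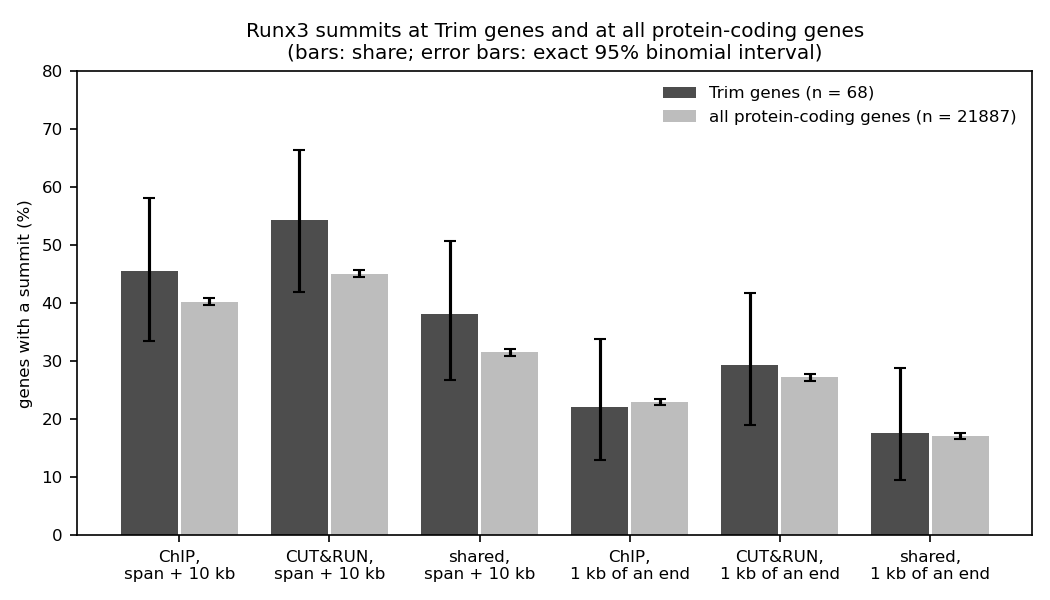
Share of genes with a Runx3 summit (y axis, %) among the 68 Trim genes and the 21887 protein-coding genes, for 3 counts within the span plus 10 kb and 3 within 1 kb of a gene end. Error bars are exact 95% binomial intervals; each Trim interval includes the share of all genes, for example 45.6% beside 40.2% in ChIP.

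The peaks at members were of ordinary height. After each peak was counted once, the members had 50 ChIP peaks with a median pileup of 11.5 (7 to 32), where the whole list had a median of 12. They had 48 CUT&RUN peaks with a median of 25 (11 to 89), the same as the list's 25. In ChIP 30 of the 50 were shared (60%; 66.2% of the list), and in CUT&RUN 30 of the 48 (62.5%; 58.8%). Shared summits lay a median of 37 bp apart, beside 35 bp for all shared ChIP peaks. In the top 25% of their list stood 6 ChIP peaks (12%) and 10 CUT&RUN peaks (20.8%). A measure of background, pileup plus 1 divided by fold, was 2.12 at every ChIP peak of a member, the median of that list. By this measure none of these peaks lay in a region of high background. Members without a ChIP peak have no such value. A protein-coding gene outside the family had an end closer than any member's end to 12 of the 50 ChIP summits and 10 of the 48 CUT&RUN summits. Of these, 10 and 8 lay outside every member, and the others lay inside Trim17 or Trim28.

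**Figure D2:**
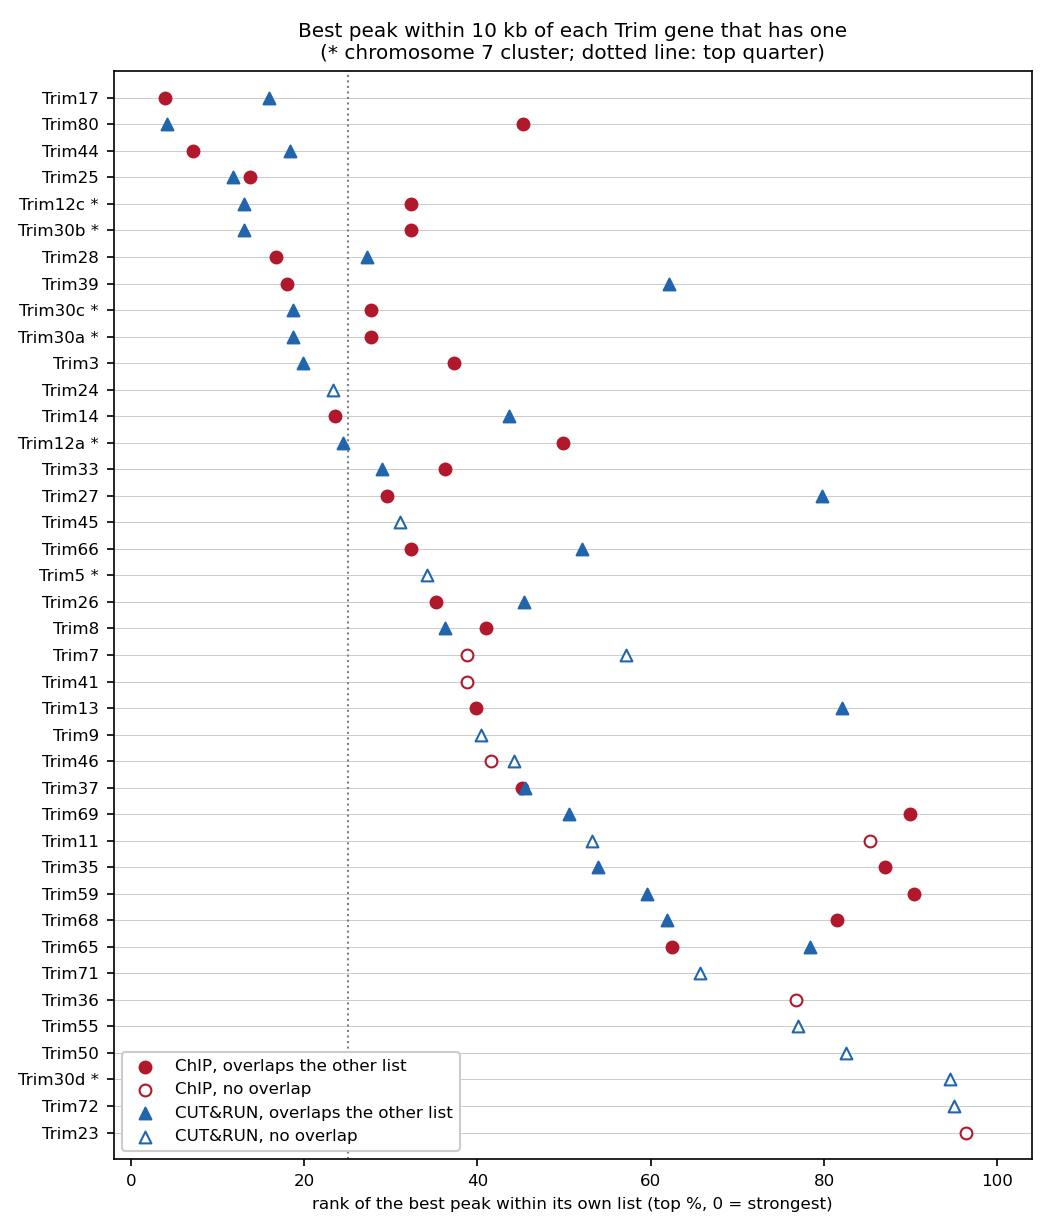
Rank of the best peak within 10 kb (x axis, top percent of its own list, 0 the strongest) for the 40 Trim genes that had one. Circles are ChIP, triangles CUT&RUN, and filled marks overlap the other list; Trim17 leads in ChIP (3.96%) and Trim80 in CUT&RUN (4.15%), and most members lie to the right of the dotted line at 25%.

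The chromosome 7 cluster runs over 289 kb (chr7:104218795-104507853) in the order Trim6, Trim34a, Trim5, Trim12a, Trim34b, Trim12c, Trim30b, Trim30c, Trim30a and Trim30d. It holds the mouse relatives of the human retroviral restriction factor TRIM5, together with the Trim30 genes, of which Trim30a is known as a brake on NF-kB signalling in immune cells. Of its members, 5 had a CUT&RUN summit within 1 kb of an end (50%, 18.7 to 81.3; all genes, 27.2%) and 3 had a ChIP summit there (30%, 6.67 to 65.2; all genes, 23%). Within 10 kb, 7 of the 10 were occupied in CUT&RUN (70%, 34.8 to 93.3; all genes, 45.1%) and 5 in ChIP (50%, 18.7 to 81.3; all genes, 40.2%). These counts came from 7 CUT&RUN peaks and 5 ChIP peaks, of which 3 in each list were shared. Neighbours shared peaks: the Trim30b counts came from the peak at the start of Trim12c, and the shared peak counted for Trim30a lay at the start of Trim30c. Trim6, Trim34a and Trim34b had no peak within 10 kb. Their nearest CUT&RUN summits lay 53, 25.9 and 14 kb away, inside or at Trim5 and Trim12a.

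The best ranked cluster peaks lay at the starts of Trim12c in CUT&RUN and of Trim30c in ChIP. At Trim12c, 15 ChIP fragments covered the summit at 104353393 (exact 95% Poisson interval 8.4 to 24.7, top 32.3%), and 49 CUT&RUN fragments the one at 104353398 (36.3 to 64.8, top 13%). They lay 5 bp apart, 44 and 49 bp before the RefSeq start. Trim30c had a pair of the same kind, with a ChIP summit at 104400880 (pileup 16, 9.15 to 26, top 27.7%) and a CUT&RUN summit at 104400876 (pileup 41, 29.4 to 55.6, top 18.7%). Both lay about 100 bp before the start, at 102 and 98 bp, and 4 bp from each other. A weak ChIP peak inside Trim30c, at 104397947, had a pileup of 7 and no partner.

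Trim12a carried its shared pair downstream of its start rather than at it. The ChIP summit at 104314909 (pileup 12, 6.2 to 21) lay 586 bp after the start and the CUT&RUN summit at 104314845 (pileup 41, 29.4 to 55.6) 650 bp after it. A further CUT&RUN summit at 104315512 lay 17 bp before the start with a pileup of 33 (22.7 to 46.3). Trim5 had CUT&RUN peaks alone, at 104288181, 75 bp before its start, again with a pileup of 33 (22.7 to 46.3), and at 104290875 with a pileup of 16. Thus the start sites of Trim5 and Trim12a carried CUT&RUN peaks of equal pileup, and neither had a ChIP peak there.

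Trim30a gave a different peak in each assay. In ChIP a summit at 104446172 (pileup 13, 6.92 to 22.2, top 43%) lay 47 bp before the second, inner RefSeq start of the gene. In CUT&RUN a weak summit at 104465281 (pileup 11, 5.49 to 19.7, top 94.5%) lay 88 bp before the outer start. Neither overlapped the other list. Trim30d had only that weak peak within 10 kb, 4.73 kb from its far end, and none at its own start.

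**Figure D3:**
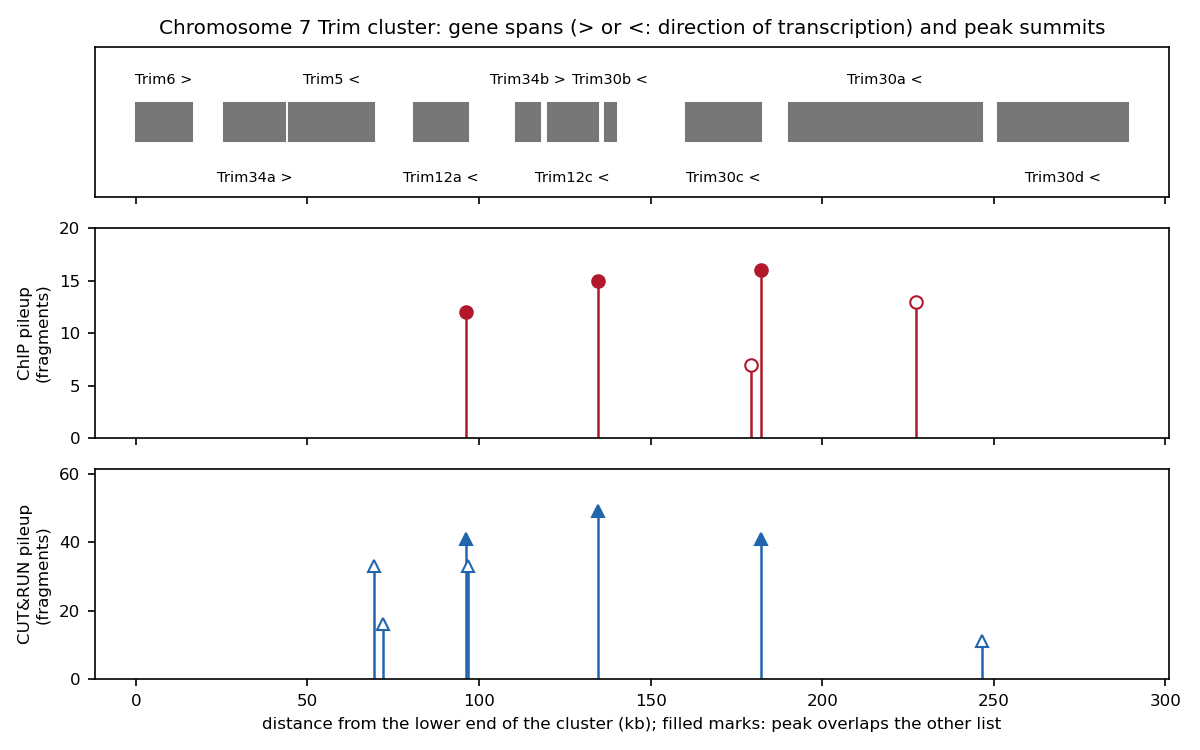
Gene spans of the 10 cluster members (top) and pileup at each summit (y axis, fragments) in ChIP (middle) and CUT&RUN (bottom) against distance from the lower end of the cluster (x axis, kb). Filled marks overlap the other list; the 3 shared positions are at Trim12a, Trim12c and Trim30c, and no summit lies at Trim6, Trim34a or Trim34b.

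The start sequences of the cluster members are shown because the copies resemble each other, and because the letters under the summits recur. RefSeq sequences of GRCm38.p6 are given 5′ to 3′ on the gene's own strand, which for these genes is the minus strand. Each runs from 150 bases before the start to base 20 after it, where base 1 is the start. Capitals mark TGTGGT (the RUNX letters) and the interferon response letters (GAAA, any 2 bases, GAAA), both searched on either strand.
Trim5 (chr7:104288087-104288256): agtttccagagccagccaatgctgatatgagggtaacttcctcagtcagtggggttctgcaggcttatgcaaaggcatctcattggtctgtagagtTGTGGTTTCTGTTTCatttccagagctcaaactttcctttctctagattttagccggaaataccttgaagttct
Trim12a (chr7:104315476-104315645): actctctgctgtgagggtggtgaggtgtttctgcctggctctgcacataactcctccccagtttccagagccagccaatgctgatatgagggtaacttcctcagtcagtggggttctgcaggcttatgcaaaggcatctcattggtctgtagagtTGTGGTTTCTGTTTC
Trim12c (chr7:104353330-104353499): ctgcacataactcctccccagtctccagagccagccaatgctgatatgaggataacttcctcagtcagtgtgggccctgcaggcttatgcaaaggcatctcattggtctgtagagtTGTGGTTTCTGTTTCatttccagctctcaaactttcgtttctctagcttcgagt
Trim30c (chr7:104400759-104400928): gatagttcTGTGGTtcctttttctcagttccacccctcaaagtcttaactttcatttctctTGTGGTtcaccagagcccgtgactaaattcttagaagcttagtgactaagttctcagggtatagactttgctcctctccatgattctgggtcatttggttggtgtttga
Trim30a, outer start (chr7:104465174-104465343): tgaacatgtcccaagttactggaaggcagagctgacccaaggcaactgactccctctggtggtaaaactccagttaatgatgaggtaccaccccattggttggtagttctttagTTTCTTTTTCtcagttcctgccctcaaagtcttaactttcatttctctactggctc
Trim30a, inner start (chr7:104446106-104446275): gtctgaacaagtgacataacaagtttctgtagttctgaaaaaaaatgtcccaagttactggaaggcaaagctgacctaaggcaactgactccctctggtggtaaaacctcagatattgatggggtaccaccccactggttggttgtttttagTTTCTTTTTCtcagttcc
Trim30d (chr7:104507830-104507999): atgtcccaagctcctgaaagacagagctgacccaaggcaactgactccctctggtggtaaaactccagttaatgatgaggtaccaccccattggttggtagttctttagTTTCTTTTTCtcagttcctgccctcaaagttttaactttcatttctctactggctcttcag

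In Trim5, Trim12a and Trim12c the RUNX letters and the interferon letters shared a base: TGTGGT ends with the first base of the interferon letters read on the other strand. This joined run was looked for after the sequences had been seen, and was found in 5 of 21238 RefSeq promoter windows of protein-coding genes (0.0235%), each 250 bases before to 50 after a start. Besides the 3 Trim windows, these were the windows of Gm6749 and Lgals9. The 3 Trim windows each held a CUT&RUN summit and the other 2 held no summit of either list. The CUT&RUN summit lay 21 bp from the RUNX letters in Trim5, 22 bp in Trim12a and 15 bp in Trim12c. In Trim30c, whose window holds TGTGGT at 2 places, the ChIP and CUT&RUN summits lay 13 and 9 bp from the nearer one. The 3 Trim windows are copies of each other and so share their source. A match of letters is a description and was not tested as a binding site.

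How alike the copies are bears on the peaks. The Trim5 and Trim12a windows share an identical run of 241 of 300 bases, and each shares 71 with Trim12c. The outer Trim30a window shares 118 with that of Trim30d, and the 250 bases before these starts were 89% identical, gaps counted. The mean fragment was 63 bp in CUT&RUN and 115 bp in ChIP, so fragments inside the Trim5 and Trim12a run could come from either gene, and CUT&RUN fragments inside the 71-base run also from Trim12c. In the ChIP list's header the control alignment's name refers to removal of non-unique reads and the ChIP alignment's name does not. How such fragments were placed is not given in the sources used here, and its part in the equal pileups of 33 was not tested. The values at the starts of Trim5, Trim12a, Trim12c and Trim30d and at the outer start of Trim30a are therefore uncertain as to the copy.

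Promoter windows were given for 53 of the 68 members, 66 windows in all. A ChIP summit lay in a window of 7 of these members (13.2%, beside 15.8% of all 17492 genes with a window) and a CUT&RUN summit in 9 (17%, beside 22.2%), and either in 11 (20.8%, beside 26.4%). TGTGGT stood in 15 of the 66 member windows (22.7%; all windows, 15%) and the RUNX variant TGCGGT in 0 (all windows, 7.43%). The interferon letters stood in 10 (15.2%; all windows, 3.34%). Among the 14 member windows with a summit, 6 held TGTGGT (42.9%), those of Trim5, Trim12a, Trim12c, Trim30c, Trim41 and Trim26, where 14.8% of all windows with a summit did. Also 6 held the interferon letters (42.9%; all windows with a summit, 2.71%), those of Trim5, Trim12a, Trim12c, Trim26 and both starts of Trim30a. In the 52 member windows without a summit the counts were 9 for TGTGGT (17.3%) and 4 for the interferon letters (7.69%). The ETS letters CCGGAAG stood in 3 of the 14 (21.4%; 25.5%). These were the window of Trim41 and overlapping windows of Trim39 that hold the same site. Since 6 of these 14 windows came from the cluster, the shares rest largely on copies. Of the windows with a summit outside the cluster, only that of Trim26 held the interferon letters. Only those of Trim41 and Trim26 held TGTGGT. The median GC content of the member windows was 53.7%, against 56.3% for all. In windows with a summit it was 55.3% for members and 62.7% for all, and its part in these shares was not tested.

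Summits near an end of a member lay nearer its start wherever strand was known. Strand was known for 12 of the 17 ChIP summits and 16 of the 22 CUT&RUN summits within 1 kb of an end, and all of these were nearer the start than the far end. Their median distance from the nearest RefSeq start was 95.5 bp in ChIP (19 to 586 bp) and 90.5 bp in CUT&RUN (10 to 650 bp). In ChIP 6 lay before the start and 6 after it, and in CUT&RUN 11 before and 5 after. No such count for all protein-coding genes is given here, so this is not shown to be particular to the family.

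**Figure D4:**
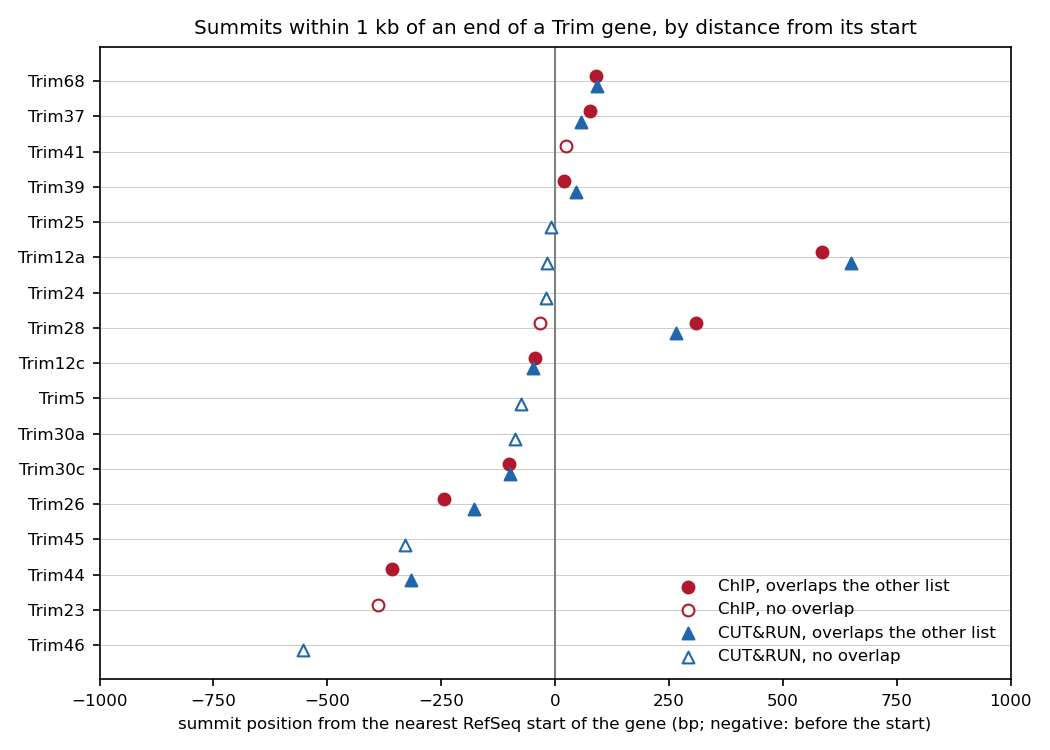
Position of each summit within 1 kb of a member's end (x axis, bp from the nearest RefSeq start, negative before it), for members with a known strand. Circles are ChIP, triangles CUT&RUN, filled marks overlap the other list; paired marks at Trim12c, Trim30c, Trim68 and Trim37 nearly coincide, while Trim12a and Trim28 have pairs 266 to 650 bp after the start.

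Among antiviral and innate sensing members outside the cluster, shared peaks of both lists were found at Trim25, Trim26, Trim14, Trim8, Trim27 and Trim65. In the whole group of 20, cluster included, 11 were occupied in ChIP within 10 kb, 13 in CUT&RUN and 7 in neither list, beside 40.2% of all genes for ChIP and 45.1% for CUT&RUN. Trim25 (chr11:88999403-89020294) encodes the ubiquitin ligase that activates the RNA sensor RIG-I. Its best peak lay 5.66 kb before the start, inside the lncRNA gene Gm11496. It reached a pileup of 21 in ChIP at 88993742 (13 to 32.1, top 13.8%) and of 53 in CUT&RUN at 88993778 (39.7 to 69.3, top 11.8%). That pair was in the top 25% of both lists, and an end of another protein-coding gene, Coil, was closer, at 2.13 kb. At the start of Trim25 itself only CUT&RUN had a peak, 10 bp away, with a pileup of 14.

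Trim26 (chr17:36837123-36859398), a regulator of the interferon response, lies beside Trim15, Trim10, Trim40 and Trim31 on chromosome 17. It was the only one of these 5 neighbours with a peak within 10 kb. The ChIP summit at 36836902 (pileup 14, 7.65 to 23.5) and the CUT&RUN summit at 36836968 (pileup 27, 17.8 to 39.3) lay 244 and 178 bp before its start. The stretch from base 250 to base 101 before the start is shown because the CUT&RUN summit lay 18 bp from an overlapping pair of interferon response letters, in capitals, plus strand.
Trim26 (chr17:36836896-36837045): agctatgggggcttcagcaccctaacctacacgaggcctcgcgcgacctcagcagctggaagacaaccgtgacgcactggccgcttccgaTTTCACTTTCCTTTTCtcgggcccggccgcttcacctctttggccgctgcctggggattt
The single TGTGGT of this window lay after the start, 215 bp from the CUT&RUN summit and 281 bp from the ChIP summit.

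Trim14, whose product works with the sensors of viral RNA and DNA, had shared peaks at both an end and an inner position. At the upper end of the gene (chr4:46505072-46536150), 10 ChIP fragments (4.8 to 18.4) covered position 46536186 and 22 CUT&RUN fragments (13.8 to 33.3) position 46536147. Inside the gene the pair at 46526439 and 46526396 had pileups of 17 (9.9 to 27.2, top 23.6%) and 23 (14.6 to 34.5, top 43.6%). Trim8, which acts on cytokine signalling, had shared pairs on either side of its lower end on chromosome 19. The pair inside the gene had summits 2 bp apart, with a ChIP pileup of 13 at 46503817 and a CUT&RUN pileup of 35 at 46503819. The pair outside it lay 1.59 and 1.73 kb away, with pileups of 8 and 38.

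Trim27 and Trim65, a ligase of the RNA sensor MDA5, had shared peaks 5.88 and 7.51 kb from an end. The Trim27 ChIP summit at 21200600 had a pileup of 15 (8.4 to 24.7, top 29.5%), its CUT&RUN partner stood lower in its list (pileup 14, top 79.8%), and the ChIP summit lay 292 bp from a tRNA gene. The Trim65 pair lay 54 and 157 bp from an end of Mrpl38, a mitochondrial ribosomal protein gene. No peak was found within 10 kb of Trim21, the cytosolic antibody receptor, of Trim56, which acts on STING, or of Trim38 and Trim31.

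All 4 nuclear corepressors of the TIF1 group were occupied in CUT&RUN within 10 kb, and 3 of them in ChIP, beside 45.1% and 40.2% of all genes. Trim33 (chr3:103279293-103358770), which encodes a regulator of SMAD signalling, had 3 shared pairs. The first pair lay 75 and 110 bp outside an end, with 12 ChIP fragments at 103279218 (6.2 to 21) and 42 CUT&RUN fragments at 103279183 (30.3 to 56.8). The second, at 103279875 and 103279842, lay just inside with pileups of 14 and 28, and the third, at 103314543 and 103314505, deep in the gene with pileups of 12 and 25. No other protein-coding gene had an end within 100 kb of these peaks.

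Trim28 (chr7:13024152-13031032), the corepressor of KRAB zinc finger proteins, had a shared pair just after its start, in a stretch that also belongs to the predicted gene Gm31649. In ChIP it peaked at 13024462 with 16 fragments (9.15 to 26, top 27.6%), in CUT&RUN at 13024418 with 31 (21.1 to 44, top 39.1%). A stronger pair at 13038384 and 13038355, with pileups of 20 (top 16.8%) and 44 (top 27.3%), lay 7.35 kb past the far end and only 0.109 and 0.08 kb from an end of Ube2m, so it was nearer to that gene. Trim24, a cofactor of nuclear receptors, was occupied only in CUT&RUN, by a summit at 37870790, 21 bp before its start (pileup 40, 28.6 to 54.5, top 23.3%). The Trim66 pair lay 2.18 and 2.26 kb outside the gene and 0.259 and 0.177 kb from an end of the ribosomal protein gene Rpl27a.

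Among the remaining members the leading peaks were at Trim17, Trim80 and Trim44. Trim17 (chr11:58954671-58973075), a ligase studied in neuronal cell death, had the best ranked ChIP peak of the family inside the gene, at 58960384 (pileup 32, 21.9 to 45.2, top 3.96%). The CUT&RUN summit 15 bp away had a pileup of 44 (32 to 59.1, top 15.9%). The histone gene H3f4 has an end 1.33 kb from it. A CUT&RUN peak without a ChIP partner lay 95 bp outside an end of Trim17, at 58954576 (pileup 39, 27.7 to 53.3, top 21.7%). An end of the histone gene H2aw lay 109 bp from that summit. Trim11, the next gene, had an inner peak in each list, at 58978566 (ChIP, pileup 8) and 58978055 (CUT&RUN, pileup 21), which did not overlap.

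Trim80 had the best ranked CUT&RUN peak, 3.85 kb past its far end at 115452113 on chromosome 11 (pileup 89, 71.5 to 110, top 4.15%). The ChIP summit 12 bp away stood much lower in its list (pileup 12, 6.2 to 21, top 45.3%). No other protein-coding gene had an end closer than 10.3 kb. Trim44 (chr2:102300119-102400900), whose product lacks a RING domain, had the strongest shared peak at a start in ChIP. The summit at 102401259 lay 359 bp before the start with a pileup of 27 (17.8 to 39.3, top 7.21%). Its partner at 102401216 reached 44 CUT&RUN fragments (32 to 59.1, top 18.4%).

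Shared peaks within 1 kb of an end were also found at Trim37, Trim68, Trim35 and Trim39. At Trim37, which encodes a regulator of centrosomes, the summits at 87127151 and 87127132 had pileups of 12 and 25 and lay 76 and 57 bp after the start. At Trim68 the summits lay 4 bp apart with pileups of 9 and 18, and at Trim35 35 bp apart with pileups of 8 and 20. Trim39 had its better peak inside the gene, where 19 ChIP fragments (11.4 to 29.7, top 18%) lay over 36266036 and 17 CUT&RUN fragments (9.9 to 27.2, top 62.1%) over 36266044. Its peaks at the start overlapped only at their flanks, with summits 546 bp apart, and were not shared when an overlap of at least 50% of the shorter peak was asked for.

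Of 7 members tied to muscle, neurons or microtubules, 4 had a peak of either list within 10 kb (all genes, 50.5%), namely Trim46, Trim9, Trim55 and Trim36. The best ranked was the single CUT&RUN summit inside Trim9 (pileup 25, 16.2 to 36.9, top 40.4%), and Trim55 had an inner one of pileup 14. Trim46 had a CUT&RUN summit 92 bp outside an end, inside Krtcap2 (pileup 26, 17 to 38.1), and a shared pair 6.62 kb away that was 0.707 kb from an end of Thbs3. Trim36 had 2 ChIP summits inside the gene, each with a pileup of 9. The muscle ligase genes Trim63 and Trim54 and the neuronal Trim67 had none. Among NHL repeat genes, Trim2 and Trim32 had no peak, and Trim71, a gene of stem and germ cells, had a CUT&RUN summit of pileup 19 outside its far end. Trim3 had a shared pair 6.92 and 6.87 kb away, 48 and 6 bp from an end of the mitochondrial import gene Timm10b, and a CUT&RUN summit 114 bp outside its own end (pileup 18).

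Peaks of only 1 list were found at 12 members within 10 kb (17.6%, 9.47 to 28.8; all genes, 15.6%). They were CUT&RUN peaks at 9 members (13.2%; all genes, 10.3%) and ChIP peaks at 3 (4.41%; all genes, 5.34%). The CUT&RUN members were Trim5, Trim30d, Trim24, Trim45, Trim9, Trim55, Trim50, Trim71 and Trim72. Of these, Trim45 had a summit at 100922164 with a pileup of 36 (25.2 to 49.8), 329 bp before its RefSeq start, and Trim50 one of pileup 13. The Trim72 summit lay 9.66 kb away and 70 bp from an end of Pycard, the gene of an inflammasome adaptor. The ChIP members were Trim41, Trim36 and Trim23. The Trim23 summit had the lowest rank of all best peaks (pileup 7, top 96.4%) and lay inside Trappc13, 8 bp from an end of Shld3. Membrane anchored Trim13 and Trim59 had shared pairs in both lists, with ChIP pileups of 13 and 8 and CUT&RUN pileups of 13 and 20. At Trim69 the shared pair lay past the far end, inside Patl2.

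Trim41 and Trim7 on chromosome 11 had 7 ChIP peaks within 10 kb and no shared peak. Trim41 encodes a ligase of protein kinase C and Trim7 a partner of glycogenin. Their 7 ChIP summits had pileups of 8 to 13, and the single CUT&RUN summit, inside Trim7 at 48838597, had a pileup of 22 (13.8 to 33.3). The only ChIP summit inside either gene, at 48817367, lay 24 bp after the start of Trim41 (pileup 13, 6.92 to 22.2, top 38.8%). Most of the others lay beside tRNA genes, of which 8 stand in this region. The summits at 48823674, 48824100, 48854053, 48856461 and 48857177 were 54, 299, 362, 110 and 122 bp from the nearest tRNA gene. The summit at 48800201 lay 6.2 kb from Trim41 and 159 bp from an end of Rack1. Over all members, 6 of the 50 ChIP peaks (12%) and 1 of the 48 CUT&RUN peaks (2.08%) lay within 0.5 kb of a tRNA gene, where 0.577% and 0.258% of the whole lists did. The remaining ChIP case and the CUT&RUN case were those past the end of Trim27.

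**Figure D5:**
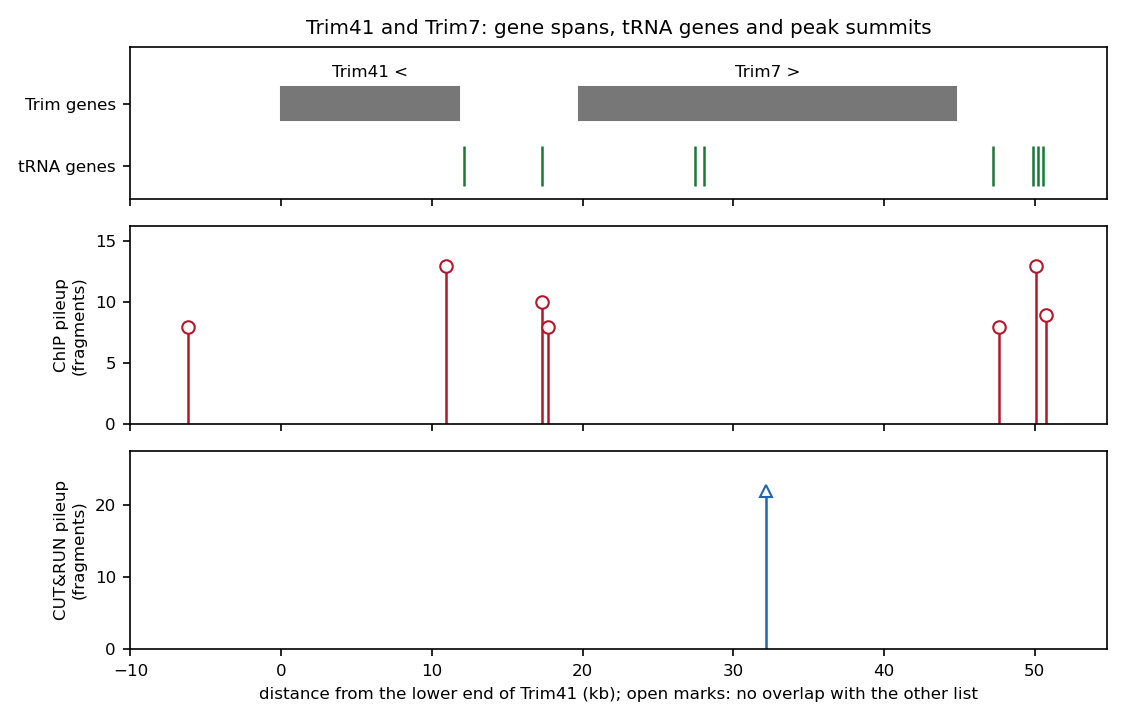
Spans of Trim41 and Trim7 with the 8 tRNA genes of the region (top) and pileup at each summit (y axis, fragments) in ChIP (middle) and CUT&RUN (bottom) against distance from the lower end of Trim41 (x axis, kb). The 7 ChIP summits do not coincide with the CUT&RUN summit, and 5 of them stand beside tRNA genes.

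No peak of either list lay within 10 kb of 28 members. Their nearest summits were 14 kb (Trim34b) to 1107 kb (Trim32) away, with a median of 39.3 kb, and for 8 of them over 100 kb. All 4 members on chromosome 8 (Trim75, Trim60, Trim61 and Trim67) were in this set, as were Trim43a, Trim43b, Trim43c, Trim42 and Trim29 on chromosome 9. The others not named above were Trim58, Trim16, Trim47, Trim52 and Trim62. Nearest the limits were Trim72, inside at 9.66 kb, and Trim34b, outside at 14 kb. At the 1 kb limit for gene ends, Trim45 (0.961 kb, a CUT&RUN summit) and Trim8 (0.957 kb, a ChIP summit) were inside. The Trim17 ChIP summit at 1.08 kb and the Trim71 CUT&RUN summit at 1.32 kb were outside.

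Related genes outside the symbol rule were counted in the same way. Of 10 genes that sense foreign RNA and DNA or pass that signal on, 9 were occupied within 10 kb in ChIP and 6 in CUT&RUN, and 5 had a shared peak at an end, where the shares of all genes were 40.2%, 45.1% and 17.1%. At Irf3, a transcription factor of the interferon response, the summits had pileups of 24 (15.4 to 35.7) and 56 (42.3 to 72.7), 28 and 7 bp from an end. Ddx58, which encodes RIG-I, had pileups of 17 and 20, and Cgas 13 and 32. Dhx58 had none. Of 9 partners of Trim28 and Trim33, CUT&RUN found all 9 occupied and ChIP 7 of them, beside the same 45.1% and 40.2% of all genes. These lists are small and were chosen with earlier results known. Atf7ip and Smad3 led with ChIP pileups of 29 (19.4 to 41.6) and 48 (35.4 to 63.6) and CUT&RUN pileups of 91 each. Of 4 tripartite motif genes under other names, Mid1 was occupied in both lists, Pml in ChIP, Mefv in CUT&RUN and Mid2 in neither.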

How the data were processed

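Each library made with the Runx3 serum gave 1 peak list on mm10. The CUT&RUN library of normal rabbit serum was not analysed here. Bowtie and MACS2 are the aligner and peak caller that the submitters' processing notes name, and the sources used here do not say how reads with several equal matches were treated. The authors ran MACS2 2.1.1.20160309 on paired-end fragments, keeping at most 1 per position, per the file headers. The ChIP threshold was q of 0.05, with whole cell extract as control. For CUT&RUN it was q of 1e-05 with no control, and the alignment's name refers to nucleosome-free fragments. Per the file headers, the deposited pileup is a coverage signal, fold enrichment is a ratio to the expected background, and p and q values are given as −log10. The measure of background used here is pileup plus 1 divided by fold. The fold has 1 added to its divisor too, so this measure stands above the expected number of fragments. High-background regions were ChIP peaks where it passed 2 times the list median.

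From these, summits were counted in gene spans plus 10 kb and within 1 kb of either gene end, for members and for all protein-coding genes of chromosomes 1 to 19, X and Y. Peaks were ranked by q, then pileup, then number. Intervals are exact (Clopper-Pearson for shares, Poisson for pileups) and cover counting error only. They hold no replicate spread, because each assay had 1 library. Starts and strands came from RefSeq promoter windows, which were given for 53 members. Cluster members were chained where spans lay at most 200 kb apart. Upstream sequences were aligned with Biopython 1.88. Counting was tested on simulated summits. Members with values are those with a shared peak at an end, a best peak in the top 25% of a list, a place in the cluster, or a peak in 1 list only; others were added after their values were seen, as were the joined motif, the identical runs and the tRNA distances. The members and lists were chosen with earlier results of these data known. Another marker list is not reported here.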

Additional observations from a re-analysis of the deposited data

How the results depend on the processing

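With 1 library per assay, depth and replicate spread limit all counts: a pileup of 7 to 15 has an interval wider than itself, and a gene without a peak may have had too few fragments for a call. Of 39 alternative counts, 27 stayed within 1.5 times the main count, among them those without regions of high background, with the CUT&RUN threshold of 1e-05 applied to ChIP, and with summits given to the nearest gene alone (23, 30 and 18 members in ChIP, CUT&RUN and shared). The other 12 moved with the window or the peaks kept. With gene spans alone, ChIP found 16 members occupied, CUT&RUN 17, and shared peaks 10 (22.4%, 24.1% and 16.2% of all genes), and in the cluster 3 and 2. With 50 kb, ChIP reached 52 members and shared peaks 48 (76.5% and 70.6%, beside 58.9% and 50.3% of all genes), and the cluster 8 in ChIP. CUT&RUN reached 54 members (79.4%, beside 62.4% of all genes), which was within 1.5 times its main count. For the 68 members these shares of all genes lie below the intervals, which do not allow for peaks counted at several neighbours. In the stronger 50% of each list, CUT&RUN fell to 21 members, shared peaks to 16, and gene ends to 9 members for ChIP and 13 for CUT&RUN (all genes: 28.4%, 17.9%, 12.8% and 14.3%). A cluster chained over 1 Mb gaps held the same 10 genes. No paired analysis was possible because each group held 1 library.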
